A study of Mus musculus with 21 samples.

Results

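The genes described here encode hydrolases of the lysosome, proteins of its membrane, and factors that regulate or activate them. They are 37 mouse genes other than the cathepsins, and their members on the array were all probe sets annotated to 1 of these symbols alone. This gave 79 of 45037 probe sets tested, for 36 of the 37 genes, because Cd63, a tetraspanin of late endosomes, had no probe set under its symbol alone. RNA came from Cstb-/- mice (allele Cstbtm1Rm, on the 129SvJ background), which lack cystatin B in every tissue, and from wild type littermates on the same background. Cerebella were taken at P7, before symptoms (4 Cstb-/- and 4 wild type arrays), and at P30, with symptoms (3 Cstb-/- and 3 wild type arrays). Cerebellar granule cells (CGCs) were dissociated from P5 pups and grown for 2 days in vitro, with cytosine arabinoside added against glial growth (3 Cstb-/- and 4 wild type arrays).

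Lysosomes take up proteins, lipids and sugar chains from endocytosis, phagocytosis and autophagy and break them down with acid hydrolases, and an inherited lack of many of these enzymes causes a storage disease that often harms neurons. Cystatin B is a small inhibitor of cysteine proteases, among them the lysosomal cathepsins, and its loss causes the progressive myoclonus epilepsy EPM1 in humans. Phagocytic cells such as microglia are rich in lysosomes, and many lysosomal genes can be switched on together by the transcription factor TFEB through palindromic E-box elements near their start sites. The comparison asked which lysosomal transcripts differed between Cstb-/- and wild type samples at each age and in the cultured neurons.

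The promoters of 6 members on which the results turn are shown with the E-box-like elements they hold, as RefSeq gives them on GRCm38.p6. Each window runs from 250 bases before to 50 bases after the annotated start, in the direction of the gene, and capitals mark matches to the E-box CACGTG, which reads the same on either strand, or to the M-box, TCATGTGA on one strand and TCACATGA on the other. The M-box was added to the search after the windows had been seen. The windows are those of Cd68 at chr11:69666121-69666420 on the minus strand, Gusb at chr5:130003000-130003299 on the minus strand, Grn at chr11:102430257-102430556 on the plus strand, Lamp2 at chrX:38456411-38456710 on the minus strand, Tpp1 at chr7:105752186-105752485 on the minus strand, and Sumf1 at chr6:108185534-108185833 on the minus strand.
Cd68 promoter: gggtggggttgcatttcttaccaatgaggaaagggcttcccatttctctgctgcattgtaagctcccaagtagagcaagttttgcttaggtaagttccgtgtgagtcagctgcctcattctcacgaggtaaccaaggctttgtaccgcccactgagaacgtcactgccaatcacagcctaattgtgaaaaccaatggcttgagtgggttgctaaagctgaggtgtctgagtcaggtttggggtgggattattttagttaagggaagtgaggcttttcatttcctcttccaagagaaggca
Gusb promoter: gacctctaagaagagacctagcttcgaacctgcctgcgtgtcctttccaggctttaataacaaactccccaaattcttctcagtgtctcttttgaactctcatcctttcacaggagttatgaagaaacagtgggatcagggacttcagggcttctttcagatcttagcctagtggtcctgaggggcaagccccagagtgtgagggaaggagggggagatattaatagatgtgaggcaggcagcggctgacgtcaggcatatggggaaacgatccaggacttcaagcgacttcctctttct
Grn promoter: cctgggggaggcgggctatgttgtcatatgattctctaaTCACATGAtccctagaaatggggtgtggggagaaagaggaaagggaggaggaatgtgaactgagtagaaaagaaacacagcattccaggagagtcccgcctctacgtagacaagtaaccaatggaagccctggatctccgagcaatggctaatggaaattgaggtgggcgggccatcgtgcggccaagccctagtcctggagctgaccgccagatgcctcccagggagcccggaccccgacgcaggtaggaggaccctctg
Lamp2 promoter: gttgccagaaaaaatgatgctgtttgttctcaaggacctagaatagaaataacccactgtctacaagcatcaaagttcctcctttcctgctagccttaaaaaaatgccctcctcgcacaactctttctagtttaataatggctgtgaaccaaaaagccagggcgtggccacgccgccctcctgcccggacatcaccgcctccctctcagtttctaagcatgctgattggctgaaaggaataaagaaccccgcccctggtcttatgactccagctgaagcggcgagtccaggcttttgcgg
Tpp1 promoter: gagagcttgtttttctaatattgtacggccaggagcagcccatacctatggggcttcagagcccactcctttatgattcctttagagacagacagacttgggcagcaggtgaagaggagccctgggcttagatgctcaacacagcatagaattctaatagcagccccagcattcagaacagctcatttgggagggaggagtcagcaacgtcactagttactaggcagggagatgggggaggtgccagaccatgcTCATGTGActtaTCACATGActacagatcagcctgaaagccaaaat
Sumf1 promoter: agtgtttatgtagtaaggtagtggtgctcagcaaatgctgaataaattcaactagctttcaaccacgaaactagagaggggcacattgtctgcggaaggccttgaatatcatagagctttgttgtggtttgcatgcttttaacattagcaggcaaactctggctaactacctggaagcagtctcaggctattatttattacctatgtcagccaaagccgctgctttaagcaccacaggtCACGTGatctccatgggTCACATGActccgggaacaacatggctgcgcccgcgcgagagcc
The Cd68, Gusb and Lamp2 windows held neither element, the Grn window held an M-box 211 bases before the start, and the Tpp1 window held a pair of M-boxes 5 and 17 bases after it. The Sumf1 window held an E-box 11 bases before the start, within the longer palindrome TCACGTGA that TFEB is known to prefer, and an M-box 7 bases after it. Windows were found for 33 of the 37 genes. An E-box lay in 11 of their 39 windows (28.2%), against 7.15% of all 32851 windows, and TCACGTGA, which contains the E-box, lay in 4 (10.3%, in Cln3, Gla, Mcoln1 and Sumf1), against 0.974% of all. An M-box lay in 5 windows (12.8%, in Gla, Grn, Ppt1, Sumf1 and Tpp1), against 0.986% of all. These are matches of letters and carry no statement about binding.

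The targeted gene was low on every Cstb-/- array: over its 2 probe sets, Cstb read -3.57 to -1.77 on the Cstb-/- arrays and -0.21 to 0.17 on the wild type arrays (log2, relative to the wild type mean of the experiment). Sex-linked transcripts matched the labelled sex on all 8 P7 arrays and did not differ among the 6 P30 arrays, of which Cstb-/- array 1 is labelled female although the methods give all P30 mice as male. Among the CGC arrays, 3 of 7 (Cstb-/- arrays 1 and 2 and wild type array 7) lay on the other side of the midpoint from the label, a midpoint set after the values had been seen. In the CGC data, 22492 of all probe sets (49.9%) and 38 of the 79 lysosomal ones (48.1%) had 2 or more arrays at exactly the same middle value. The part of these ties in the results was not tested. Because the authors had subtracted the median of each probe set, the values hold differences within an experiment and no levels, and the labelled tissue could not be checked by the level of its markers. All values below are therefore log2 values relative to the wild type mean of the same experiment, so that the wild type arrays of a probe set average 0. Differences are Cstb-/- minus wild type.

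Few of the lysosomal probe sets were called in any experiment. To be called, a probe set had to differ by a fold of at least 1.3 with an adjusted p (limma, Benjamini-Hochberg) below 0.05 for cerebellum, or below 0.01 for CGCs, as the methods set it. At P7 none of the 79 probe sets was called, where 0.00666% of all 45037 were called in either direction (3 probe sets). At an unadjusted p under 0.05, 2 lysosomal probe sets were higher and 4 lower in Cstb-/- at P7, where 4.47% of all were higher and 4.99% lower, and the methods' t-test among probe sets past the fold called none of them either. At P30, 3 were called higher and none lower, those of Cd68, Gusb and Grn, where 0.138% of all probe sets were called higher. In CGCs, 1 was called higher, that of Gusb, and none lower, where 2.07% of all were called higher. At an adjusted p under 0.05, the threshold used for the cerebella, 11 of the 79 were higher in CGCs, in Gusb, Lamp2, Npc2, Sumf1 and Tpp1, and none was lower, against 6.83% of all probe sets higher at that threshold.

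**Figure D1:**
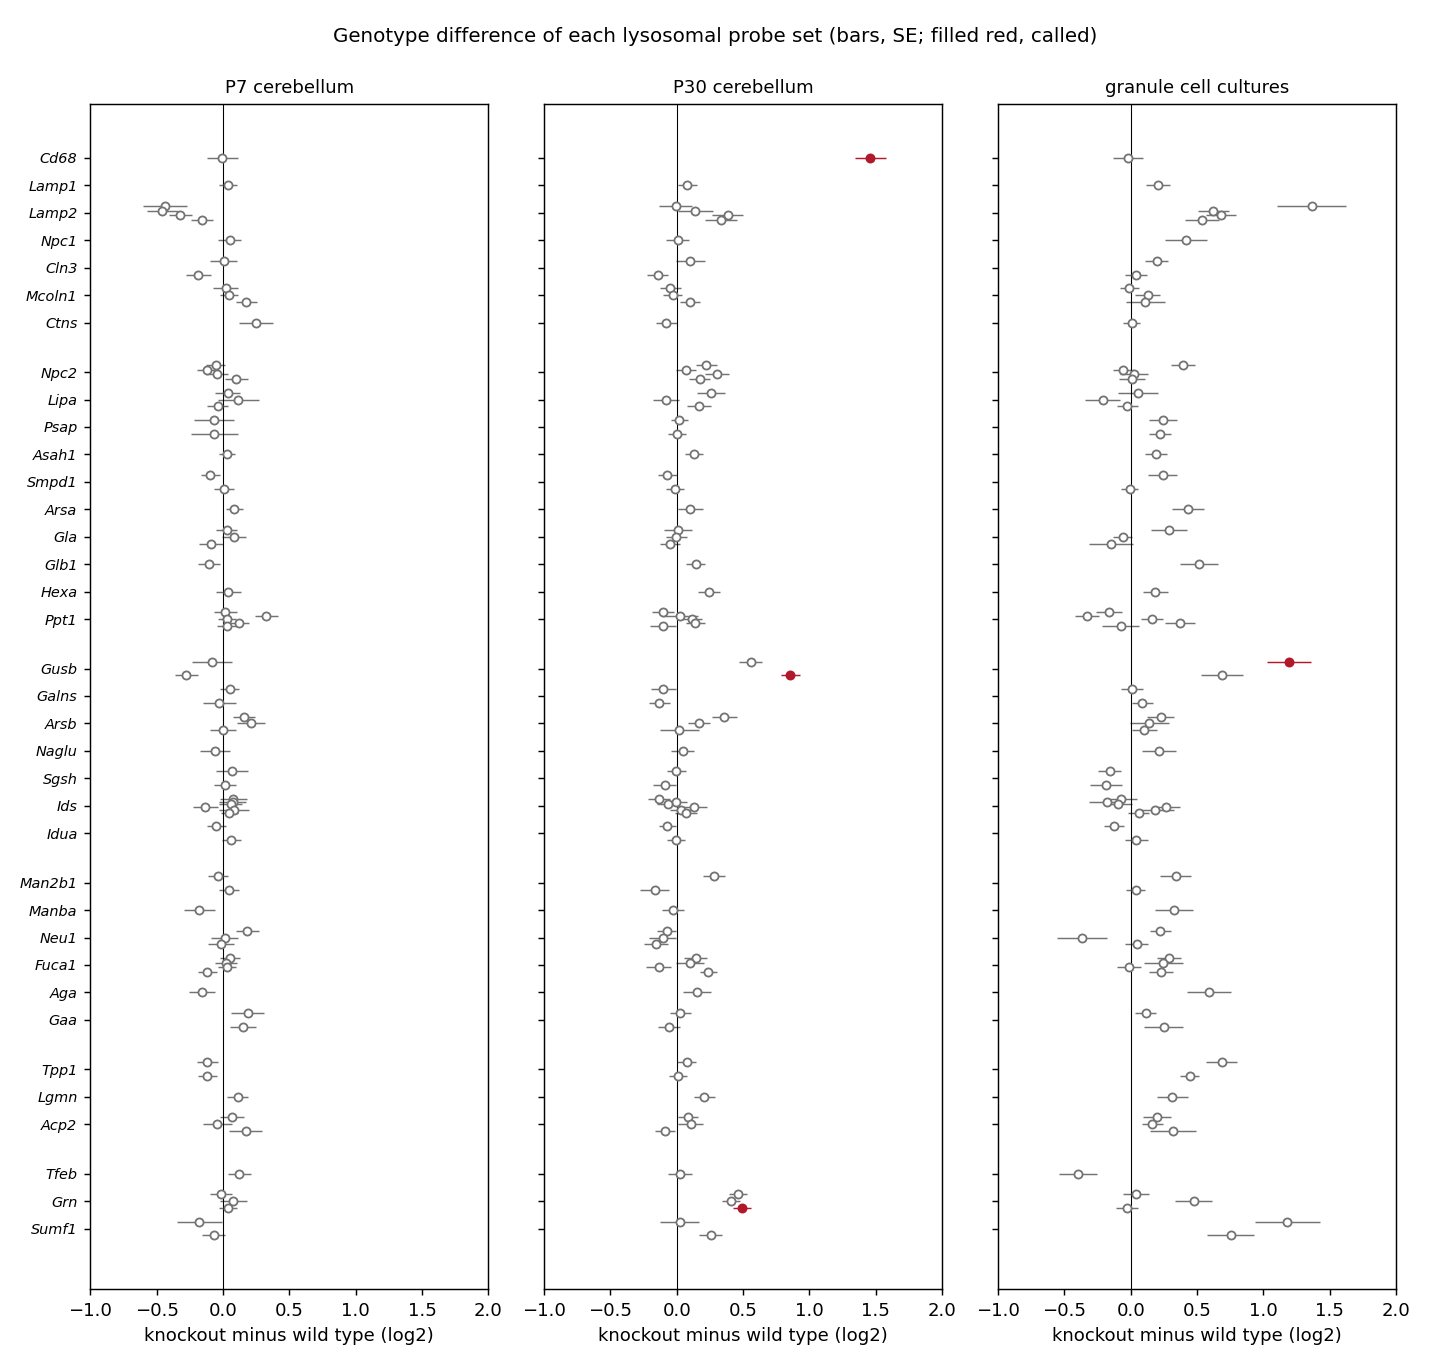
Genotype difference (Cstb-/- minus wild type, log2, x axis) of each of the 79 lysosomal probe sets in P7 cerebella, P30 cerebella and CGCs, with genes in rows grouped by role from membrane proteins at the top to regulators at the bottom. Bars are SE from limma, and filled red points were called (none at P7, Cd68, Gusb and Grn at P30, and Gusb in CGCs).

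Over all 79 probe sets the shift was small in the cerebella and larger in culture. The median difference was 0.026 at P7, with 46 of 79 above 0, where the median of all probe sets was 0.010. At P30 it was 0.031, with 50 of 79 above 0, where that of all was -0.0078. In CGCs it was 0.16, with 58 of 79 above 0, where that of all was -0.025. The number whose Cstb-/- and wild type arrays did not overlap differed between the experiments, as did the number of arrays. Groups of fewer arrays lie apart more often by chance alone, so each count stands beside the share of all probe sets. At P7, 1 probe set lay wholly higher and 3 wholly lower, against 2.80% and 2.84% of all probe sets. At P30, 20 lay wholly higher, in 15 genes, and 2 wholly lower, against 6.24% and 6.25% of all. In CGCs, 22 lay wholly higher, in 16 genes, and 1 wholly lower, against 13.4% and 9.33% of all. The mean of all 79 probe sets separated the genotypes in P30 cerebella, at 0.082, 0.095 and 0.12 on the Cstb-/- arrays and -0.027, -0.028 and 0.055 on the wild type arrays. In CGCs this mean was 0.24, 0.14 and 0.20 on Cstb-/- arrays and -0.033 to 0.028 on the 4 wild type arrays. At P7 the means overlapped, from -0.015 to 0.019 on Cstb-/- arrays and from -0.035 to 0.026 on wild type arrays. The nearest P30 means, 0.082 on Cstb-/- and 0.055 on wild type arrays, are close. The P30 mean includes the called probe sets of Cd68, Gusb and Grn, and a mean without them was not taken. Its separation therefore cannot be read as a rise of the other members. Of the roles without a call at P30, lipid breakdown had means of 0.048 to 0.11 on Cstb-/- and -0.033 to 0.037 on wild type arrays. Those of glycoprotein and glycogen breakdown overlapped (-0.0034 to 0.044 and -0.045 to 0.058), as did those of peptidases and phosphatase (0.040 to 0.10 and -0.064 to 0.086).

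Among the membrane proteins, Cd68 was the member with the largest difference in P30 cerebella. Cd68 (chromosome 11) encodes macrosialin, a heavily glycosylated protein of late endosomes and lysosomes that marks macrophages and microglia. Its probe set read 1.29, 1.63 and 1.46 on the Cstb-/- P30 arrays, and 0.13, -0.22 and 0.094 on the wild type arrays. All Cstb-/- values thus lay above all wild type values, by more than the spread of either group. The difference was 1.46 (SE 0.12), a 2.75-fold rise, with an adjusted p of 0.0013. At P7, Cd68 read 0.26, -0.15, -0.096 and -0.026 on Cstb-/- arrays, and -0.26, 0.15, 0.18 and -0.066 on wild type arrays. In CGCs it read -0.23, 0.088 and 0.091 on Cstb-/- arrays, and -0.059, -0.13, 0.20 and -0.015 on wild type arrays. The genotypes overlapped at P7 and in CGCs, with differences of -0.0038 (95% confidence interval -0.26 to 0.25) and -0.018 (-0.28 to 0.24).

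Lamp2 (chromosome X), which encodes a major membrane glycoprotein with isoforms that serve membrane stability and chaperone-mediated autophagy, had 4 probe sets, and these stood in opposite directions in P7 cerebella and in CGCs. At P7 the probe set 1416344_at read -0.15, -0.35, -0.55 and -0.78 on Cstb-/- arrays, and 0.045, -0.059, -0.047 and 0.061 on wild type arrays. The probe set 1428094_at read -0.25, -0.16, -0.39 and -0.48 on Cstb-/- arrays, and -0.13, -0.013, 0.11 and 0.031 on wild type arrays. Neither overlapped between genotypes, yet neither was called (differences -0.46 and -0.32, adjusted p 0.33 and 0.35). When the fit took in the sex on the labels, 2 Lamp2 probe sets were called lower at P7, and 1108 of all probe sets were called in place of 3. At P7, 3 of 4 Cstb-/- arrays came from males, against 1 of 4 wild type arrays. The other pair of Lamp2 probe sets differed by -0.43 and -0.16 at P7, and their arrays overlapped.

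In P30 cerebella the Lamp2 differences were 0.38, 0.33, 0.14 and -0.0097, and none was called. Wild type array 3 was the highest of its group in all 4 probe sets. In CGCs, 1416343_a_at read 1.24, 1.25 and 1.59 on Cstb-/- arrays, and 0.56, -0.72, 0.075 and 0.081 on wild type arrays. It thus had no overlap but a wide wild type spread. Its difference was 1.36 (SE 0.26), a 2.57-fold rise, with an adjusted p of 0.017, which misses the threshold for CGCs. The other Lamp2 probe sets differed by 0.68, 0.62 and 0.54 in CGCs, with adjusted p values of 0.010, 0.017 and 0.035, and none of their arrays overlapped.

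The remaining membrane proteins were not called in any of the experiments. Lamp1, the other abundant membrane glycoprotein, differed by 0.040 at P7, 0.080 at P30 and 0.20 in CGCs. Npc1, which exports cholesterol from the lysosome, differed by 0.053, 0.0055 and 0.42, the last with an adjusted p of 0.11. Cln3, a membrane protein lost in juvenile neuronal ceroid lipofuscinosis, had differences of 0.0064, 0.10 and 0.20 at its probe set 1417551_at. Its other probe set was at -0.19, -0.14 and 0.037. Mcoln1, a calcium channel of the lysosomal membrane, ranged over its 3 probe sets between -0.048 and 0.18 in the 3 experiments. Ctns, the cystine exporter, differed by 0.25, -0.078 and 0.0063. Of the 13 probe sets of membrane proteins, 11 were above 0 in CGCs and 8 at P30.

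**Figure D2:**
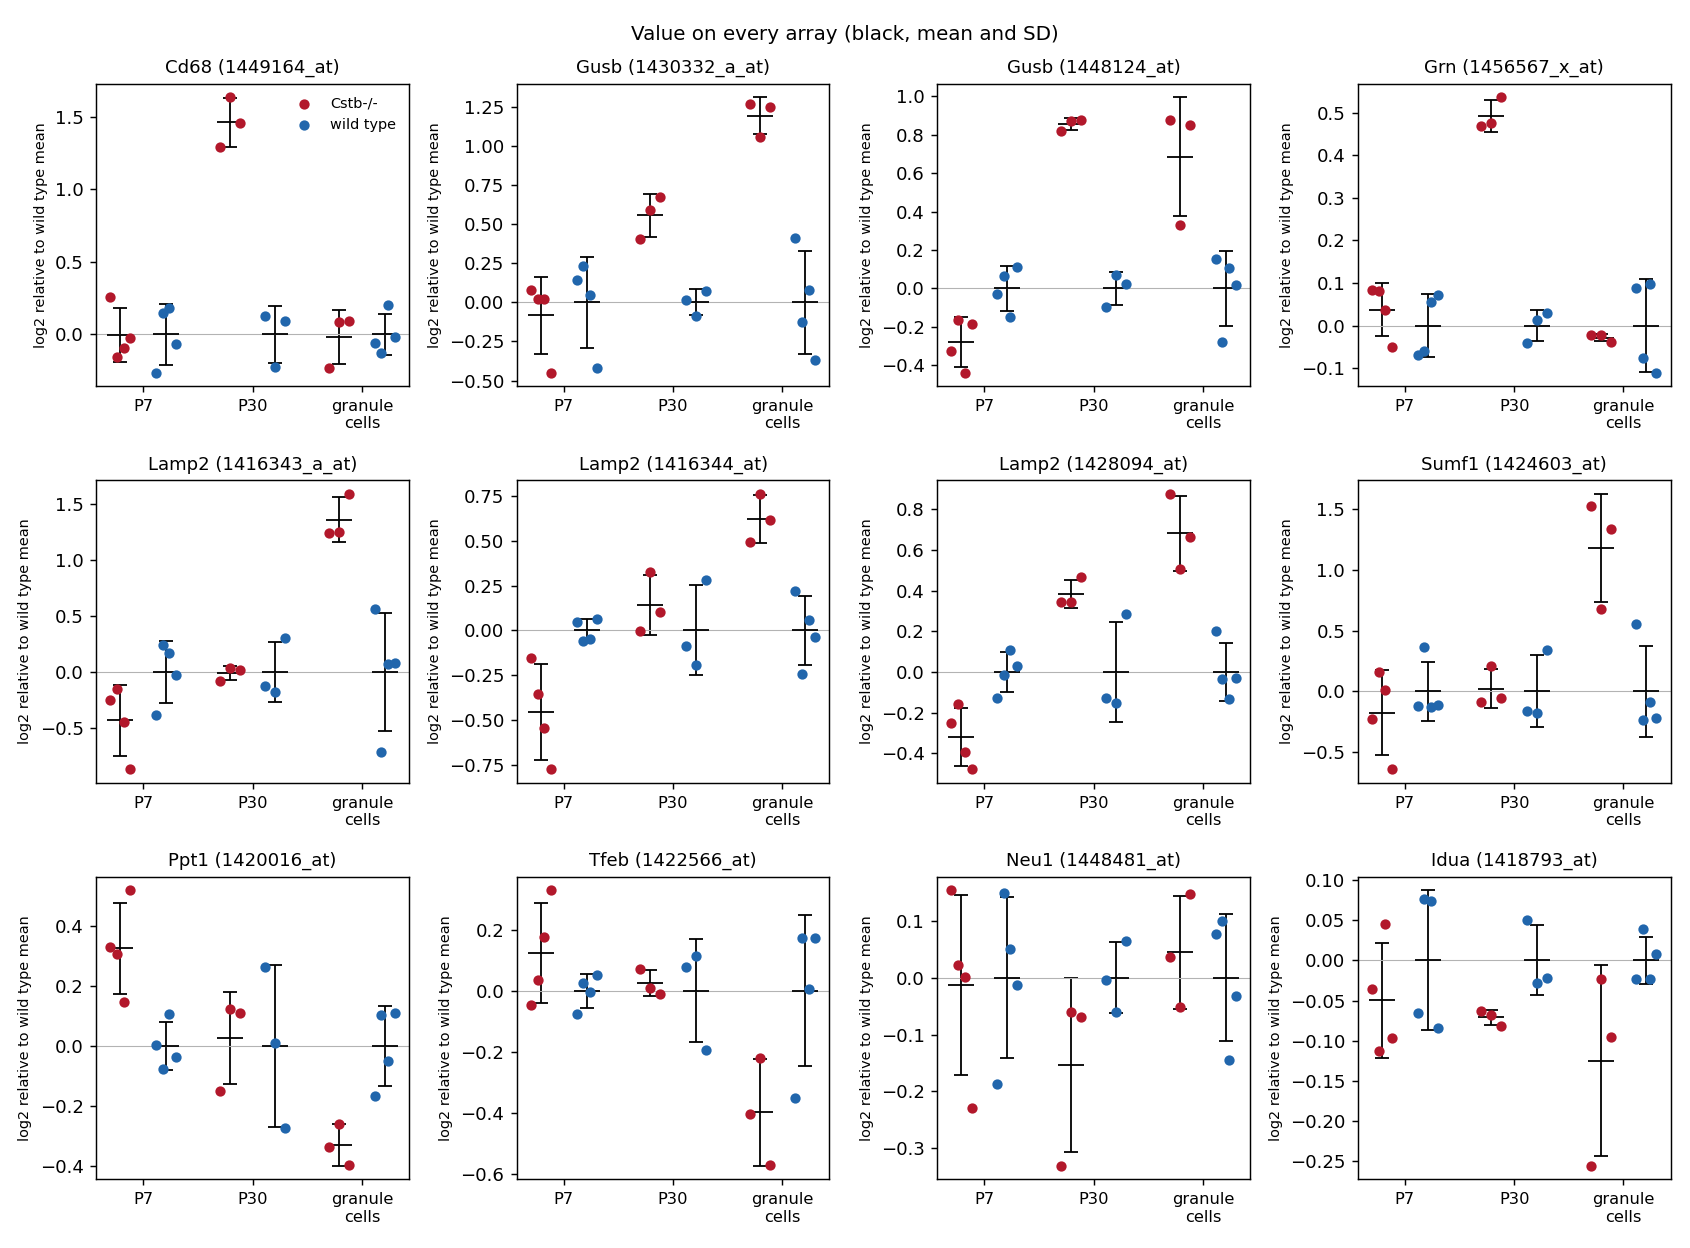
Value on every array (log2 relative to the wild type mean of the experiment, y axis) for the 12 probe sets whose values are given array by array in the text, in P7 cerebella, P30 cerebella and CGCs (x axis), with Cstb-/- in red left of wild type in blue. Black lines are the mean and SD. The Cstb-/- arrays of Cd68 lie from 1.29 to 1.63 at P30 and among the wild type arrays at P7 and in CGCs.

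Gusb (chromosome 5), which encodes beta-glucuronidase, an enzyme of glycosaminoglycan breakdown long used as a lysosomal marker, was called at P30 and in CGCs. Its probe set 1448124_at read 0.82, 0.87 and 0.88 on Cstb-/- P30 arrays, and -0.094, 0.070 and 0.024 on wild type arrays. The difference was 0.86 (SE 0.073), a 1.81-fold rise, with an adjusted p of 0.0019. Its other probe set, 1430332_a_at, read 0.40, 0.59 and 0.67 on Cstb-/- P30 arrays, and 0.015, -0.089 and 0.074 on wild type arrays. It also had no overlap, and its difference of 0.56 (SE 0.089) had an adjusted p of 0.075. In CGCs the order of the pair was reversed: 1430332_a_at read 1.27, 1.06 and 1.25 on Cstb-/- arrays, and 0.41, -0.12, 0.079 and -0.37 on wild type arrays. That difference was 1.19 (SE 0.17), a 2.29-fold rise, with an adjusted p of 0.0055. The call was lost when Cstb-/- array 1 or 3, or wild type array 5, 7 or 8, was left out, with adjusted p values of 0.0023 to 0.033 over all single omissions and differences of 1.07 to 1.33.

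In CGCs 1448124_at read 0.88, 0.33 and 0.85 on Cstb-/- arrays, and 0.15, -0.28, 0.11 and 0.016 on wild type arrays (difference 0.69, adjusted p 0.032). Cstb-/- array 2 was the lowest of its group in both Gusb probe sets. At P7, 1448124_at read -0.32, -0.16, -0.44 and -0.18 on Cstb-/- arrays, and -0.030, 0.066, -0.15 and 0.11 on wild type arrays. The groups did not overlap there either, in the opposite direction, and the difference of -0.28 (SE 0.087) was not called (adjusted p 0.41). At P7, 1430332_a_at read 0.076, 0.019, 0.023 and -0.45 on Cstb-/- arrays, and 0.14, 0.23, 0.047 and -0.42 on wild type arrays, which overlapped.

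No other enzyme of glycosaminoglycan breakdown was called. Arsb, the sulfatase of dermatan sulfate, had the next largest difference at P30, 0.36 (SE 0.092), with Cstb-/- arrays from 0.21 to 0.44 and wild type arrays from -0.12 to 0.093. Its adjusted p was 0.37. Its other probe sets were at 0.17 and 0.020 at P30, and all 3 lay between 0.10 and 0.23 in CGCs. Idua, alpha-L-iduronidase, had 1 probe set without overlap in the other direction at P30: -0.063, -0.068 and -0.081 on Cstb-/- arrays, and 0.050, -0.028 and -0.022 on wild type arrays. That difference was -0.071 (adjusted p 0.84). Naglu, which removes N-acetylglucosamine from heparan sulfate, differed by -0.060 at P7, 0.045 at P30 and 0.21 in CGCs. Galns, a sulfatase of keratan sulfate, ranged from -0.13 to 0.088 over its probe sets and experiments. Sgsh, heparan N-sulfatase, was at -0.16 and -0.18 in CGCs, and Ids (chromosome X), iduronate sulfatase, spread from -0.18 to 0.27 over 6 probe sets there.

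Among the 23 probe sets for lipid breakdown, none was called in any experiment. At an unadjusted p under 0.05, 1 was higher at P7, 4 were higher at P30, and 7 were higher and 1 lower in CGCs. At that threshold 4.47% of all probe sets were higher at P7, 4.16% were higher and 3.55% lower at P30, and 18.3% were higher and 13.3% lower in CGCs. At P30, 8 lay wholly higher in Cstb-/- cerebella and none wholly lower, against 6.24% and 6.25% of all probe sets. The 8 included 3 of the 4 probe sets of Npc2, which hands cholesterol to Npc1, with P30 differences of 0.30, 0.22 and 0.17. The Npc2 probe set 1416901_at also differed by 0.39 in CGCs (SE 0.088, adjusted p 0.029), while the other 3 lay between -0.057 and 0.026 there. Hexa, a subunit of beta-hexosaminidase, differed by 0.24 at P30, with Cstb-/- arrays from 0.16 to 0.32 and wild type arrays from -0.070 to 0.12. Lipa, lysosomal acid lipase, was at 0.26, 0.17 and -0.079 over its probe sets at P30. Asah1, acid ceramidase, was at 0.13 and Glb1, beta-galactosidase, at 0.14, both without overlap and both without a call.

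In CGCs, Glb1 differed by 0.51 (adjusted p 0.056) and Arsa, the sulfatase of sulfatide, by 0.43 (adjusted p 0.061). Psap, the precursor of the saposins that help these enzymes reach lipids, differed by 0.24 and 0.22 in CGCs and by 0.019 and 0.0038 at P30. Asah1 was at 0.19 and Hexa at 0.19 in CGCs. Smpd1, acid sphingomyelinase, was at 0.24 and -0.0086 there, and Gla (chromosome X), alpha-galactosidase A, at 0.29, -0.061 and -0.15. These probe sets of 1 gene thus did not move alike. Ppt1, which removes fatty acids from proteins, split in the same way, at 0.37, 0.16, -0.075, -0.16 and -0.33 in CGCs.

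The lowest of these, Ppt1 1420016_at, read -0.34, -0.26 and -0.40 on Cstb-/- CGC arrays, and -0.17, 0.10, -0.048 and 0.11 on wild type arrays (adjusted p 0.056). At P7 the same probe set read 0.33, 0.31, 0.15 and 0.52 on Cstb-/- arrays, and 0.0052, -0.075, 0.11 and -0.038 on wild type arrays (difference 0.33, adjusted p 0.34). It was the only lysosomal probe set wholly higher at P7 and the only one wholly lower in CGCs. The other 4 Ppt1 probe sets lay between 0.020 and 0.12 at P7.

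The 13 probe sets for glycoprotein and glycogen breakdown held no call, with 0 at P7, 2 higher at P30 and 6 higher in CGCs at an unadjusted p under 0.05, against 4.16% and 18.3% of all probe sets higher at P30 and in CGCs. Man2b1, lysosomal alpha-mannosidase, differed by 0.28 at P30 at 1416340_a_at, with Cstb-/- arrays from 0.24 to 0.33 and wild type arrays from -0.11 to 0.13, while its other probe set was at -0.17. In CGCs the same pair was at 0.34 and 0.037. Fuca1, alpha-L-fucosidase, was at 0.24, 0.14, 0.099 and -0.14 over its 4 probe sets at P30 and at 0.23, 0.29, 0.25 and -0.013 in CGCs. Aga, which cleaves the bond between asparagine and its sugar chain, differed by -0.16 at P7, 0.15 at P30 and 0.59 in CGCs (adjusted p 0.058). Manba, beta-mannosidase, differed by -0.18, -0.029 and 0.32. Gaa, which breaks down glycogen, lay between -0.060 and 0.25 throughout.

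Neu1, the lysosomal sialidase, stood slightly lower at P30 at all 3 of its probe sets (-0.075, -0.11 and -0.15), without a call. Its probe set 1448481_at read -0.33, -0.061 and -0.070 on Cstb-/- P30 arrays, and -0.0050, -0.060 and 0.065 on wild type arrays. The nearest values of the groups were thus almost equal, and Cstb-/- array 1 set most of the difference. In CGCs the Neu1 probe sets were at 0.22, 0.044 and -0.37.

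Of the peptidases, Tpp1 (chromosome 7), a tripeptidyl peptidase lost in late infantile neuronal ceroid lipofuscinosis, stood out in CGCs. Its 2 probe sets differed by 0.68 (SE 0.12) and 0.44 (SE 0.074), 1.61-fold and 1.36-fold, with adjusted p values of 0.012 and 0.010, just short of the CGC threshold. The Cstb-/- arrays lay from 0.45 to 0.89 and from 0.41 to 0.51, above every wild type array (-0.10 to 0.16 and -0.075 to 0.098). In the cerebella Tpp1 was at -0.12 and -0.12 at P7 and at 0.076 and 0.011 at P30. Lgmn, the asparaginyl endopeptidase legumain, which processes cathepsins, differed by 0.21 at P30 (Cstb-/- 0.14 to 0.27, wild type -0.067 to 0.11) and by 0.31 in CGCs, without a call. Acp2, lysosomal acid phosphatase, was at 0.20, 0.16 and 0.32 in CGCs and between -0.087 and 0.10 at P30. All 6 probe sets of this group were above 0 in CGCs.

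Grn (chromosome 11) encodes progranulin, a secreted and lysosomal glycoprotein made by microglia and neurons. Its probe set 1456567_x_at read 0.47, 0.47 and 0.54 on Cstb-/- P30 arrays, and -0.042, 0.013 and 0.029 on wild type arrays. The difference was 0.49 (SE 0.067), a 1.41-fold rise, with an adjusted p of 0.037. The call was lost when any 1 of the 6 arrays was left out, with differences of 0.47 to 0.51 and adjusted p values of 0.063 to 0.25. The other Grn probe sets differed by 0.46 and 0.41 at P30, also without overlap, with adjusted p values of 0.060 and 0.086. At P7, 1456567_x_at read 0.084, 0.080, 0.036 and -0.051 on Cstb-/- arrays, and -0.069, -0.059, 0.056 and 0.072 on wild type arrays. In CGCs it read -0.023, -0.023 and -0.039 on Cstb-/- arrays, and 0.089, -0.076, 0.098 and -0.11 on wild type arrays. The genotypes overlapped at P7 and in CGCs, and in CGCs the other Grn probe sets were at 0.48 and 0.039.

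Sumf1 (chromosome 6) encodes the enzyme that activates sulfatases, among them those encoded by Arsa, Arsb, Galns, Ids and Sgsh. In CGCs its probe set 1424603_at read 1.53, 0.68 and 1.34 on Cstb-/- arrays, and 0.55, -0.24, -0.091 and -0.22 on wild type arrays. No value overlapped, although the lowest Cstb-/- value and the highest wild type value were close. The difference was 1.18 (SE 0.25), 2.27-fold, with an adjusted p of 0.024, and that of its other probe set was 0.75 (adjusted p 0.036). At P30 the pair was at 0.021 and 0.26, and at P7 at -0.18 and -0.069.

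Tfeb, the transcription factor itself, was not called in any experiment. It read -0.046, 0.036, 0.18 and 0.33 on Cstb-/- P7 arrays, and -0.076, 0.027, -0.0031 and 0.053 on wild type arrays. At P30 it read 0.072, 0.0093 and -0.0090 on Cstb-/- arrays, and 0.078, 0.12 and -0.19 on wild type arrays. In CGCs it read -0.41, -0.22 and -0.57 on Cstb-/- arrays, and -0.35, 0.17, 0.0055 and 0.17 on wild type arrays. The CGC difference was -0.40 (SE 0.14, adjusted p 0.11), with wild type array 4 inside the Cstb-/- range.

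Whether a genotype difference itself differed between experiments was tested as a contrast of the differences, at an adjusted p under 0.05. Both contrasts use the P7 arrays and are therefore not independent of each other. Between P30 and P7, 2 of the 79 probe sets passed, both higher, where 0.120% of all probe sets passed higher: Cd68, by 1.46 (SE 0.18, adjusted p 0.0013), and Gusb 1448124_at, by 1.13 (SE 0.12, adjusted p 0.0002). Without wild type P30 array 3, 4 passed. Between CGCs and P7, 14 passed higher and 2 lower, where 10.9% of all probe sets passed higher and 4.96% lower. Those higher were all 4 of Lamp2, both of Gusb, Sumf1 and Tpp1, and 1 each of Aga, Fuca1, Glb1 and Npc2. Of these, Fuca1 no longer passed in 12 of 15 single omissions (adjusted p 0.019 to 0.13), and Aga and Glb1 did not pass without Cstb-/- CGC array 3 (0.059 and 0.058). Lamp2 1416343_a_at had the largest contrast of the 79, 1.80 (95% confidence interval 1.12 to 2.47). Those lower were Ppt1 1420016_at, by -0.66 (-0.93 to -0.39), and Tfeb, by -0.52 (-0.88 to -0.16, adjusted p 0.046). Tfeb no longer passed in 12 of 15 single omissions, with adjusted p values of 0.0071 to 0.13. The number of lysosomal probe sets that passed between CGCs and P7 was 12 to 20 over single omissions, with 12 without Cstb-/- CGC array 3 and 20 without Cstb-/- CGC array 2. For neither contrast was the share of all probe sets taken under an omission. These changes of count are therefore not results about the members.

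**Figure D3:**
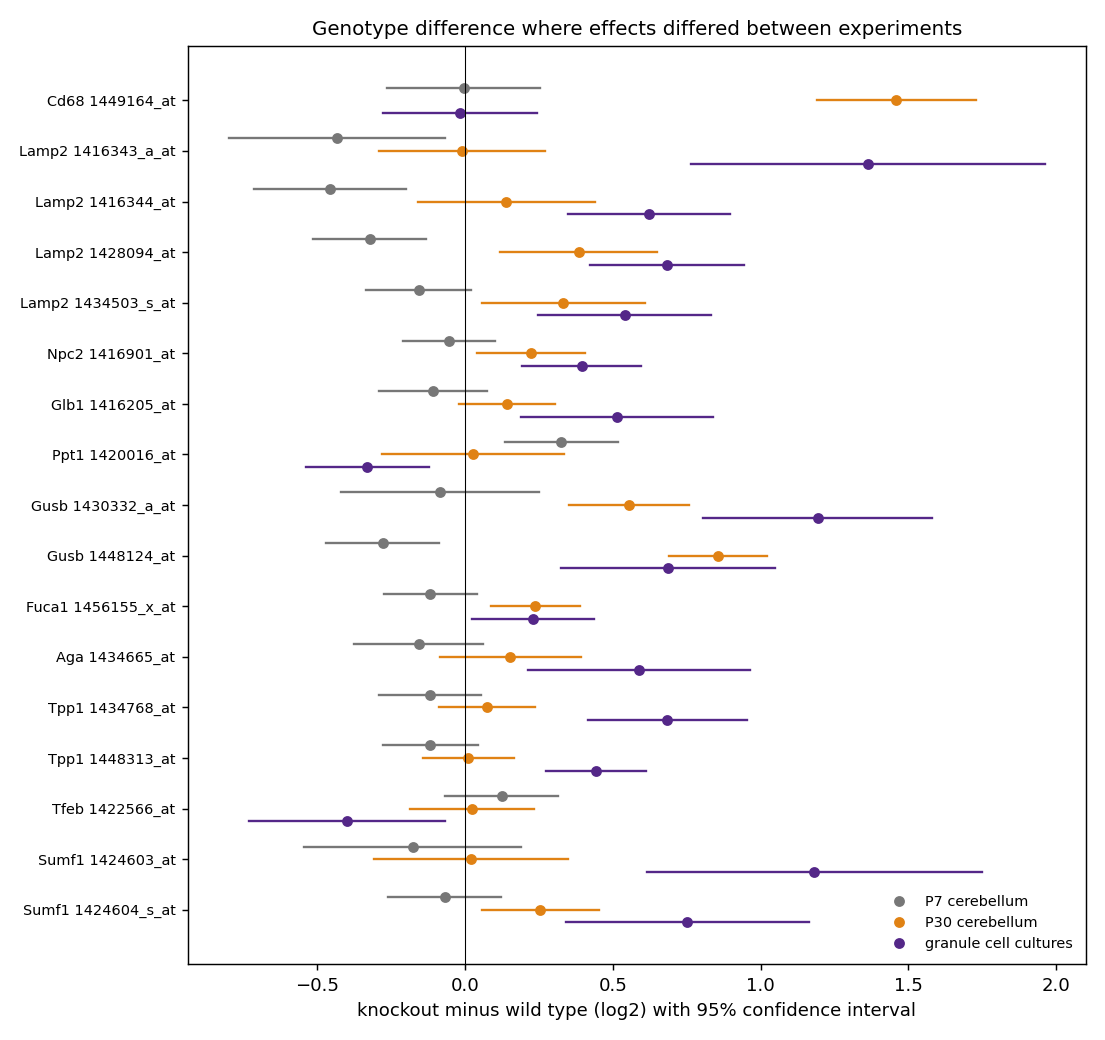
Genotype difference (Cstb-/- minus wild type, log2, x axis) with its 95% confidence interval for the 17 lysosomal probe sets that passed either contrast (rows), in P7 cerebella (grey), P30 cerebella (orange) and CGCs (purple). The P7 intervals of 3 Lamp2 probe sets and of Gusb 1448124_at lie below 0 and their CGC intervals above 0, while Cd68 is above 0 at P30 alone.

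Other lysosomal genes were set beside the members by counts alone. Of 35 probe sets of other hydrolases and membrane proteins, none was called at P7 or P30 (0 higher and 2 lower at P7, and 2 higher and 0 lower at P30, at an unadjusted p under 0.05) and 1 in CGCs, Cd164 (a sialomucin of endosomes and lysosomes), at 0.86 (SE 0.080, adjusted p 0.00088). Their medians were -0.024 at P7, 0.043 at P30 and 0.084 in CGCs. Of 38 probe sets of the vacuolar ATPase, which acidifies the lysosome, none was called in any experiment, with medians of 0.046, -0.0059 and 0.027. At an unadjusted p under 0.05, 4 of these were higher at P7, none at P30, and 10 higher and 2 lower in CGCs, against 4.47% of all probe sets higher at P7 and 18.3% higher and 13.3% lower in CGCs. Of 24 cathepsin probe sets, 4 were called higher at P30: Ctsc at 1.34, Ctss at 1.32, and the pair for Ctsh at 0.80 and 0.71. Ctss and Ctsc are cysteine proteases of immune cells. In CGCs only the Ctsh pair among the cathepsins was called, at 0.80 and 0.76, and at P7 no cathepsin was. The mean over the cathepsins was 0.27 to 0.32 on Cstb-/- P30 arrays and -0.070 to 0.075 on wild type P30 arrays. It includes the 4 called probe sets, and the median P30 difference of the 24 was 0.14.

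Markers of other cells moved in the same samples. At P30, 14 of 27 probe sets of microglia and macrophage markers (10 of 16 genes) were called higher and none lower, with a median of 0.62. They were led by Tyrobp at 2.20, C1qb at 2.09 and 2.06, C1qa at 1.83 and C1qc at 1.76. The mean of this list was 0.87, 0.76 and 1.02 on Cstb-/- P30 arrays, and -0.099, 0.018 and 0.080 on wild type arrays. Cd68, Gusb, Grn and the called cathepsins were thus higher on the same 3 arrays as this list, and its part in their rise was not tested. In tissue RNA, more cells of a type and more RNA per cell cannot be told apart. Of 31 astrocyte probe sets, 3 were called higher at P30, all of Gfap, the intermediate filament of astrocytes, at 2.36, 2.15 and 1.75. The mean of the astrocyte list was 0.32 to 0.35 on Cstb-/- arrays and -0.0085 to 0.015 on wild type arrays. It includes the 3 Gfap probe sets, and the median P30 difference of the list was 0.18.

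In CGCs none of the 27 microglia and macrophage probe sets was called (3 higher and 4 lower at an unadjusted p under 0.05), with a median of -0.093 and means of -0.13 to -0.031 on Cstb-/- arrays and -0.056 to 0.093 on wild type arrays. Fibroblast and meningeal markers were higher instead: 12 of 17 probe sets were called, with a median of 1.53, led by Col1a1 at 3.59, Col3a1 at 3.49 and Col1a2 at 3.41 and 2.67, chains of fibrillar collagens. The mean of that list was 1.48 to 1.57 on Cstb-/- CGC arrays and -0.078 to 0.12 on wild type arrays. Of the astrocyte probe sets, 7 of 31 were called higher in CGCs, 5 of Gja1 (0.91 to 1.67) and those of Aldh1l1 (0.76) and Aldoc (0.64). Over all probe sets, 2.07% were called higher. The astrocyte median was 0.44, with 27 of 31 above 0, and the lowest difference of the list was -0.78. At an unadjusted p under 0.05, 19 of the 31 were higher and 2 lower, against 18.3% and 13.3% of all. The astrocyte mean was 0.42 to 0.56 on Cstb-/- arrays, and -0.11, -0.070, -0.029 and 0.21 on wild type arrays. The wild type array with 0.21, array 4, was also the highest wild type array for both probe sets of Gusb, all 4 of Lamp2, Sumf1 1424603_at and Tpp1 1434768_at. It was not the highest for the other probe sets of Sumf1 and Tpp1, where arrays 8 and 7 were highest. In the fibroblast and meningeal list, wild type array 4 was at -0.032 and array 8 was the highest wild type array, at 0.12. Of 12 endothelial and pericyte probe sets, 1 was called higher in CGCs, that of Pdgfrb at 1.97 (adjusted p 0.0025). The median of that list was -0.041, with 7 of 12 below 0. Of 16 granule neuron probe sets 1 was called lower in CGCs, that of Fat2, an atypical cadherin, at -0.62 (adjusted p 0.0038). The granule neuron median was 0.047, with 10 of 16 above 0. The part of these other cells in the CGC values of the lysosomal genes was not tested.

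No oligodendrocyte or Purkinje cell probe set was called in any experiment, and at P7 no marker list held a call. Choroid plexus markers nevertheless had a median of -2.08, with 14 of 16 probe sets lower at an unadjusted p under 0.05 and means of -2.89 to -0.38 on Cstb-/- arrays and -0.23 to 0.17 on wild type arrays. Oligodendrocyte markers had a median of 0.51, with means of 0.40 to 0.86 on Cstb-/- arrays and -0.25 to 0.22 on wild type arrays. The choroid plexus mean was also low on Cstb-/- P30 arrays 1 and 3, at -2.92 and -2.77, and was 0.75 on Cstb-/- array 2, with wild type arrays from -0.69 to 0.72. On these 3 Cstb-/- P30 arrays Cd68 read 1.29 to 1.63, Gusb 1448124_at 0.82 to 0.88 and Grn 1456567_x_at 0.47 to 0.54. Granule neuron markers had means of 0.24 to 0.42 on Cstb-/- P7 arrays and -0.079 to 0.058 on wild type P7 arrays, with 7 of 16 probe sets higher at an unadjusted p under 0.05. Fibroblast and meningeal markers had means of -0.36 to -0.074 on Cstb-/- P7 arrays and -0.034 to 0.044 on wild type P7 arrays, with 8 of 17 lower. The part of these other cells in the P7 values of Lamp2 and Gusb was not tested. In CGCs the oligodendrocyte markers had a median of -0.39, with 21 of 23 below 0, and means of -0.52 to 0.032 on Cstb-/- arrays and -0.066 to 0.044 on wild type arrays.

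**Figure D4:**
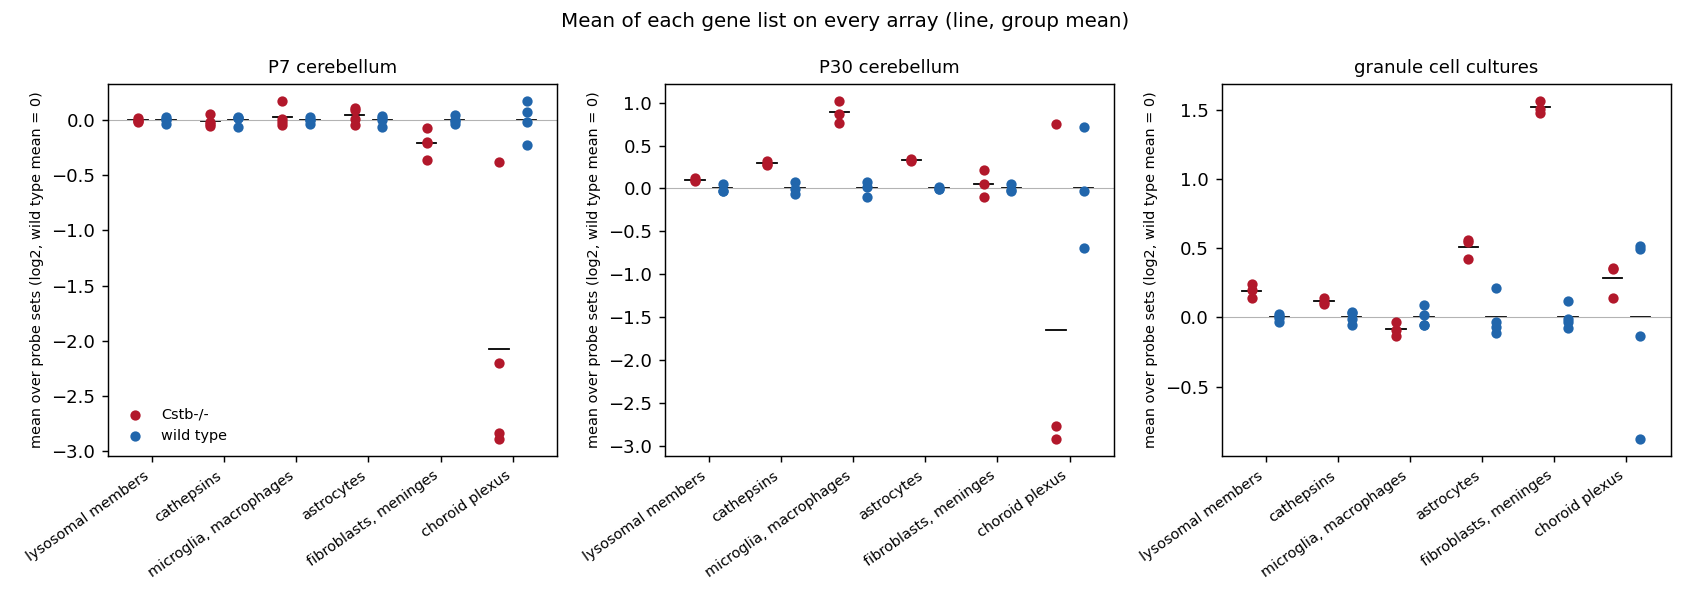
Mean over the probe sets of a list on every array (log2, wild type mean at 0, y axis) for the lysosomal members, cathepsins and 4 cell type marker lists (x axis), in P7 cerebella, P30 cerebella and CGCs, with Cstb-/- in red left of wild type in blue and a line at each group mean. Microglia and macrophage markers are higher on the Cstb-/- P30 arrays (0.76 to 1.02), fibroblast and meningeal markers on the Cstb-/- CGC arrays (1.48 to 1.57), and choroid plexus markers lower on the Cstb-/- P7 arrays (-2.89 to -0.38).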

How the data were processed

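RNA of each of 21 samples had been hybridized to an Affymetrix Mouse Genome 430 2.0 array. By the methods, the authors adjusted background, normalized by quantiles and summarized signals by RMA, then subtracted the median of each gene across samples, and they deposited log2 values on this scale. Within every experiment, the deposited log2 values of a probe set had a median of 0. The values give no signal over background, and the number of arrays limits the precision.

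The tests covered 45037 of the 45101 probe sets, the other 64 being array controls. The platform annotation gave 1 symbol to 34945 of them, several to 932 and none to 9160. Groups came from the labels. Within each experiment, Cstb-/- was compared with wild type by limma 3.58.1 (R 4.3.3; lmFit, eBayes) without covariates, 2-sided, with Benjamini-Hochberg adjustment over all probe sets. The thresholds follow the methods: a fold of 1.3 and an adjusted p of 0.05 in cerebella or 0.01 in CGCs. Contrasts between experiments came from 1 fit of the groups concerned. The methods give the replicates of cerebella as mice. As quality control, the authors checked by principal components that samples of a genotype grouped together. All samples were then used except 1 P7 sample of each genotype and 1 Cstb-/- CGC sample. For both genotypes, fewer CGC arrays were available here than this leaves. The p-values, overlaps and single omissions rest on the spread among the arrays kept. For CGCs the methods give cells from P5 mice, with samples of both sexes, but do not say whether each array is a separate culture. The sex-linked Xist minus Eif2s3y (log2) ran from -8.67 to 3.54 over Cstb-/- arrays and from -8.70 to 3.54 over wild type arrays. The CGC arrays of a genotype thus do not all repeat 1 culture. Their p-values measure the spread between these arrays, which may be technical in part. The fits were tested on simulated data. Python 3.11.15, pandas 2.3.3, numpy 2.4.6 and matplotlib 3.10.9 were used for promoters and figures. RefSeq promoters are from GRCm38.p6.

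The members, lists and tests were chosen with earlier results of these data known. Values on every array are given for probe sets called in any experiment, the 3 largest rises and falls without overlap in each, and Cd68, Gusb and Tfeb. Genes of other lists are named when called, at most 4 genes a list and experiment. Alternatives were the t-test of the methods, array weights, robust variance, another scaling, gene means, a sex covariate, a replicate block and single omissions.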

Additional observations from a re-analysis of the deposited data

Results flagged for a closer look

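Among 24 groups of 4 arrays examined for a value far from the rest, 1 stood out, where chance alone gives about 1 in 20. It was Gusb 1430332_a_at on Cstb-/- P7 array 5, at -0.449, while the other Cstb-/- P7 arrays lay between 0.019 and 0.076. Wild type P7 array 4 was at -0.42 in the same probe set.

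The other results stand here because the genotype difference itself differed between experiments. From P7 to P30 the difference grew by 1.13 for Gusb 1448124_at and by 1.46 for Cd68. In CGCs it was above that of P7 cerebella by 1.80, 1.08, 1.004 and 0.70 for the Lamp2 probe sets 1416343_a_at, 1416344_at, 1428094_at and 1434503_s_at. For Sumf1 it was above by 1.36 and 0.82, for Gusb by 1.28 and 0.96, and for Tpp1 by 0.80 and 0.56. For Aga it was above by 0.75, for Glb1 by 0.62, for Npc2 1416901_at by 0.45 and for Fuca1 1456155_x_at by 0.35. For Ppt1 1420016_at and Tfeb it was below that of P7, by contrasts of -0.66 and -0.52. The contrasts of Tfeb and Fuca1 each lost their pass in 12 of 15 single omissions. The CGC contrast sets cells taken at P5 and grown for 2 days against whole P7 tissue. Culture, cell content and age at dissection cannot be told apart in it.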

How the results depend on the processing

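At P7 the count of lysosomal calls was 0, and 2 when the fit took in the sex label. At P30 it was 3, against 0 with the methods' t-test adjusted over all probe sets, 6 with that test over probe sets past the fold, and 6 with array weights (of all probe sets 1, 210 and 226, against 65). It was 2 without any single P30 array and 2 with a replicate block, each time without Grn, and without _s_at and _x_at probe sets it was also 2. Over all probe sets, the P30 count of 65 ranged over single omissions from 29 (without Cstb-/- array 1 or wild type array 1) to 76 (without Cstb-/- array 2). In CGCs it was 1, against 0 with the methods' t-test over all probe sets, 8 with array weights, 3 with gene means, 15 in 1 fit over all groups, 3 with the sex label and 11 at an adjusted p of 0.05. Over all probe sets 2.54% were called in CGCs, and 0.0711%, 6.28%, 4.56%, 12.7%, 2.79% and 9.05% under these settings in the same order. Single omissions gave 0 to 9 in CGCs: 0 without Cstb-/- array 1 or 3 or wild type array 5, 7 or 8, and 9 without Cstb-/- array 2, while 302 to 2685 of all probe sets (0.671% to 5.96%) were called. The methods' t-test past the fold called 1, of Tpp1 and not Gusb. The contrast of P30 with P7 passed 2, and 2 to 4 over single omissions, with 4 without wild type P30 array 3. That of CGCs with P7 passed 16, and 12 to 20 over single omissions. For both contrasts, passes over all probe sets were not counted under these omissions. Over single omissions the lysosomal median ranged from 0.026 (without wild type array 2) to 0.072 (without wild type array 3) at P30 and from 0.12 (without Cstb-/- array 1) to 0.18 (without Cstb-/- array 2) in CGCs. Differences that changed sign lay mostly near 0: P7 Cd68 (0.0012 with array weights, -0.092 to 0.056 over single omissions, above 0 in 5), P7 Grn 1456567_x_at (-0.011 with the sex label), P7 Gusb 1430332_a_at (-0.22 to 0.039, above 0 without Cstb-/- array 5), P30 Tfeb (-0.038 with array weights, -0.073 to 0.082, below 0 without wild type array 3), CGC Grn 1456567_x_at (0.16 with gene means, -0.065 to 0.0043, above 0 at 0.0015 and 0.0043 without wild type array 4 or 7) and CGC Cd68 (-0.072 to 0.090, above 0 at 0.090 and 0.049 without Cstb-/- array 1 or wild type array 7). The cause of these changes was not tested. For the named probe sets, 354 other recalculated differences kept direction and side of the threshold, 17 lost a call and 19 gained one. At P30, Cd68 and Gusb 1448124_at lost the call under the methods' t-test over all probe sets and under no other alternative run. Arrays share only a number between genotypes: same-numbered arrays correlated in their deviations at 0.0058 to 0.17 at P7 and -0.18 to -0.034 at P30. Of the Cstb-/- arrays, only P7 array 3 correlated best with the wild type array of its own number. With the replicate block, 0 lysosomal probe sets were called at P7 (2 of all, against 3) and 2 at P30 (49 of all, against 65). No paired analysis was possible for CGCs because the genotypes share no numbers.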

Other observations

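Members with and without an E-box or M-box in the promoter window were set side by side by their gene means, with no test. Of 32 genes with both a window and a probe set, 14 held such an element. Their median difference was 0.037 at P7, 0.044 at P30 and 0.19 in CGCs, against 0.0052, 0.044 and 0.14 for the 18 genes without. In CGCs the 14 ranged from -0.17 to 0.97 and the 18 from -0.40 to 0.94, so the ranges overlapped almost wholly.

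For 23 genes with several probe sets, these had differences of the same sign in 9 genes at P7, 12 at P30 and 12 in CGCs. Probe sets of a gene thus often differed in sign, and the same count over all genes with several probe sets was not taken. Where Gusb and Grn were called, their probe sets shared a sign. Gusb was at 0.56 and 0.86 at P30 and at 0.69 and 1.19 in CGCs, and Grn at 0.41 to 0.49 at P30. A call at 1 probe set remains a value of that probe set.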
